A study of Mus musculus with 6 samples.

Results

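U7 snRNA is the short RNA of the particle that trims histone mRNAs, and its gene in the mouse is Rnu7. It was 1 of 485 snRNA transcripts and 1 of 5880 transcripts in a table of non-coding RNAs counted in exosomes. The row was the only one whose identifier (ENSMUST00000158458.1) carries the symbol Rnu7 in GENCODE release M21. Rnu7 was selected on its own values in these libraries, that is on its counts, its share of the snRNA counts and its course over days of culture. Those values are therefore given as a description, without a test.

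Exosomes were collected from the medium of P19 cells, a mouse embryonal carcinoma line, and small RNA libraries were made from 200 ng of exosomal RNA. UD-P19 (replicates 1 to 3, n = 3) are undifferentiated cells, kept for 24 h before collection in serum-free alpha-MEM with N2 supplement. P19N (replicates 4, 5 and 6, n = 3) are neurons obtained from UD-P19 with retinoic acid over 4 days and grown in neurobasal medium with glutamine, B27 and N2. The P19N cultures also received 5-fluorouridine with uridine on day 3, for 24 h, and again on day 8 once that day's medium had been taken, so that the day 10 and day 12 collections followed a second exposure. Replicates 4, 5 and 6 are the collections of days 8, 10 and 12, with 1 library a day, so day and replicate cannot be told apart. By the paper's account, P19N medium stayed on the cells longer than 24 h before the day 8 collection, and fresh medium was given 24 h after fluorouridine. Medium, serum history, conditioning time and fluorouridine differ between the groups together with the cell state. All media held an antibiotic and antimycotic solution, and all cells come from a single line.

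U7 snRNA acts in the nucleus, in a small particle with a ring of Sm proteins in which Lsm10 and Lsm11 replace the usual SmD1 and SmD2. Its 5′ end pairs with the histone downstream element of replication-dependent histone pre-mRNAs, and the particle brings the nuclease that cuts their 3′ ends. These histone mRNAs end in a stem-loop instead of a poly(A) tail and are made mainly in S phase, and U7 gathers in histone locus bodies and Cajal bodies.

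The first 30 bases of Rnu7 and of Gm23763, the transcript of the table nearest to it in sequence, are shown with their U7-type Sm site in capitals. A 30-base stretch of the U12 RNA Rnu12, of the U11 RNA Rnu11 and of the U5 copy Gm23287 is shown beside them, because these carry the uridine-rich core of the usual Sm site, here in capitals. All were read 5′ to 3′ from the GENCODE transcripts of GRCm38 and are written as DNA.
Rnu7: aagtgttacagctcttttagAATTTGTCTa
Gm23763: aagggctatagctcttttagAATTTGTCTa
Rnu12: atgtgagaagaaTTTTTGagcgggtatagg
Rnu11: cggaagcataatTTTTTGgtaattgggcag
Gm23287: tcttaacccaatTTTTTGaggtcttgtgct

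The motif AATTTGTCT stood at bases 21 to 29 of Rnu7 and was searched on the transcript strand only. It was held by 2 of the 485 snRNA transcripts (0.412%), Rnu7 and Gm23763, and by 45 of 5773 transcripts of any class with a sequence (0.779%). The letters TTTTTG were not found in Rnu7, and were held by 43 of the 485 snRNA transcripts (8.87%) and by 33.3% of all transcripts with a sequence. Among them were 16 of 16 U2-type, 10 of 10 U5-type and 3 of 3 U11-type transcripts, with 3 of 4 of the U12 type, 1 of 50 of the U1 type and 0 of 323 of the U6 type. A match of letters is a description and not a mapped binding site. Only these exact letters were sought, so a type without them may still hold an Sm site written otherwise. U1 was listed as an Sm-class RNA and U6 as an Lsm-class RNA. In the lowest-energy fold that RNAfold gave for Rnu7 (-17.5 kcal/mol), the longest stem had 11 pairs and ran from base 34 to base 59, downstream of the Sm site. The same fold also paired bases 17 to 21 with bases 27 to 31, so both ends of the Sm site were drawn as paired.

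Rnu7 is 62 bases long and lies on the minus strand at chr6:124741225-124741286 of GRCm38. In the annotation it falls entirely within the 5′ untranslated part of the first exon of Grcc10, a protein-coding gene on the same strand (chr6:124739183-124741374), and within an intron of Gm45234, also on that strand. Grcc10 mRNA was not part of the table, and whether reads of it were counted at Rnu7 was not tested. Gm23763 (chr1:136990211-136990270, minus strand, 60 bases) matched Rnu7 at 43 of 46 aligned bases, or 93.5% identity over 74.2% of the longer sequence. It was under the likeness set for a U7 copy (80% identity over 80% of the longer sequence) and was named after its values were seen. It had 2, 0 and 0 counts in UD-P19 replicates 1 to 3 and 2, 2 and 1 in P19N replicates 4 to 6, and none of these 7 counts was unique.

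The libraries held between 454499 and 887460 counts in all. UD-P19 replicate 2 stood apart in its group, with 2800 transcripts detected against 1679 and 1907 in replicates 1 and 3, and values of Rnu7 are therefore also given without it. The table holds non-coding RNA only, so the labels could be checked against few markers. The neural list (7 names, among them the Mir9 hairpins, Rmst and Meg3) summed to 7.37 to 94.8 counts per 1000000 in UD-P19 and to 58.6 to 120.2 in P19N, so that the groups overlapped, through UD-P19 replicate 2. The Mir9 hairpins together had 0 counts in every UD-P19 library and 4, 0 and 3 in P19N. The pluripotency list (4 names) summed to 24.8 to 56.5 in UD-P19 and to 5.29 to 8.37 in P19N, most of it Mir17hg, while Mir290a was not matched and Mir302a had 3 counts, all in UD-P19 replicate 2. The counts are reads and not independent molecules, and every interval below covers counting error alone. The submitters call the samples biological replicates.

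Rnu7 was among the most counted RNAs in every library. It had 11453, 8510 and 13495 counts in UD-P19 replicates 1, 2 and 3, with exact Poisson 95% intervals of 11244 to 11665, 8330 to 8693 and 13268 to 13725. In P19N it had 26907 counts (26586 to 27231) on day 8, 19508 (19235 to 19784) on day 10 and 13329 (13104 to 13557) on day 12. The day 12 library was below UD-P19 replicate 3, and so the raw counts of the groups overlapped. By count Rnu7 held rank 2, 4 and 2 among all transcripts in the UD-P19 libraries and rank 4 in each P19N library. The lincRNA Gm42418 was first in all 6 libraries, and in P19N the U1 copies Gm25890 and Gm22614 also stood above Rnu7.

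Set against length, Rnu7 stood at or next to the top of the table. It had 185, 137 and 218 counts per base in UD-P19 replicates 1, 2 and 3, which placed it at rank 1, 2 and 2, with Gm42418 above it in replicates 2 and 3. It had 434, 315 and 215 counts per base in P19N on days 8, 10 and 12 and was at rank 1 each time. The next transcript had 189 counts per base on day 8 (Gm25890), 151 on day 10 (Gm25890) and 135 on day 12 (the mitochondrial tRNA mt-Ts2). Reads of 75 bases from both ends can span all 62 bases of Rnu7, so counts per base compare reads and not molecules.

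Nearly all Rnu7 reads were assigned to it alone among the non-coding transcripts. Over the 6 libraries 93197 of its 93202 counts (99.99%) were unique, which was read as matching no other non-coding transcript. Grcc10 mRNA, whose first exon holds Rnu7, was not among these. The 5 other counts were 3 in P19N replicate 4 and 2 in P19N replicate 5. Among the summed counts of all other snRNA transcripts 3.28% were unique, and among those of the U1 type 0.542%. The share of unique counts among the other snRNAs differed between the groups, at 18.9%, 16.9% and 15.2% in UD-P19 and 2.45%, 2.18% and 2.13% in P19N. Of the snRNA types examined, U11 came closest to Rnu7, with 99.7% unique.

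Most Rnu7 reads were in the exact column, read as free of mismatches. Exact counts were 8341, 5682 and 10239 in UD-P19 replicates 1, 2 and 3, or 72.8%, 66.8% and 75.9% of its counts. In P19N they were 20128, 14579 and 9969, or 74.8%, 74.7% and 74.8%. The P19N values lay inside the range of the UD-P19 values, and UD-P19 replicate 2 was the lowest of the 6. Over all libraries 74.0% of Rnu7 counts were exact, against 43.2% for Rnu11, 16.0% for the U5 copy Gm23287, 73.4% for Rnu12, 79.9% for the U1 copy Gm22513, 81.3% for the U2 copy Gm25939 and 90.1% for the U6 copy Gm25380. Summed over all other snRNA transcripts the exact share was 67.6 to 74.7% in UD-P19 and 78.3 to 79.3% in P19N, where it was above that of Rnu7 in every library.

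**Figure D1:**
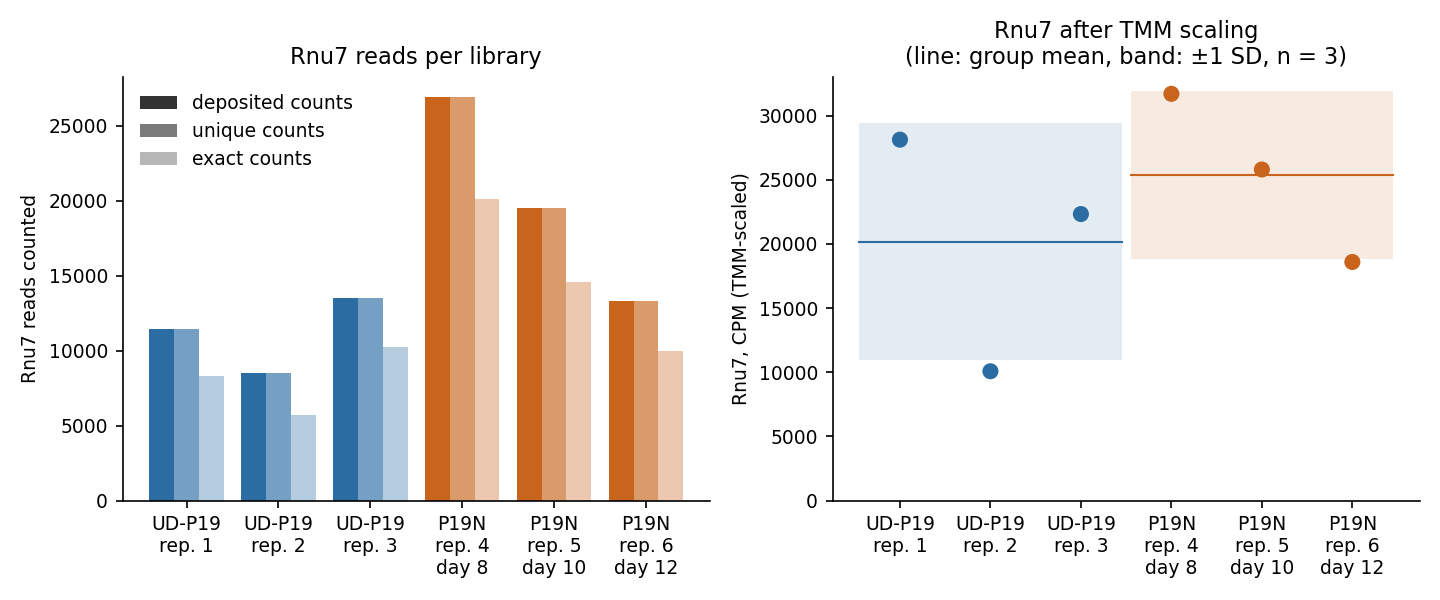
Rnu7 in each library. The left panel plots deposited, unique and exact counts as bars (reads), and the right panel plots counts per 1000000 of the TMM-scaled library (CPM) as points, with group mean and SD (n = 3). Deposited and unique bars are level in every library, and the CPM of the groups overlap, from 10084 to 28125 in UD-P19 and from 18595 to 31699 in P19N.

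To compare libraries of unequal size and make-up, counts were scaled with the TMM method of edgeR and expressed as counts per 1000000 (CPM). Rnu7 was at 28125, 10084 and 22331 CPM in UD-P19 replicates 1, 2 and 3. In P19N it was at 31699, 25801 and 18595 CPM on days 8, 10 and 12. Libraries of both groups alternated along this order, with UD-P19 replicate 2 lowest and the day 8 library highest. The gaps between neighbours in the order were 2324 to 8511 CPM, all below the SD of the UD-P19 replicates.

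The group means of Rnu7 were 20180 ± 9211 CPM (SD, n = 3) in UD-P19 and 25365 ± 6563 CPM (SD, n = 3) in P19N, a ratio of 1.26. The fitted log2 fold change was 0.33 (standard error 0.361), P19N against UD-P19, and is given without a test. Over all 1286 tested transcripts the median was 0.21, so Rnu7 lay 0.12 above it. This gap was 0.58 on unique counts, 0.39 without UD-P19 replicate 1 and 0.28 without P19N replicate 6. It was 0.02 with no filter on low counts and 0.03 on exact counts. Without UD-P19 replicate 2 the UD-P19 mean of Rnu7 was 25228 CPM and its log2 fold change was 0.18, which lay below the median of all tested transcripts (0.60 over 1145). Without P19N replicate 4, the day 8 library, the log2 fold change was -0.03 and the median of all tested was -0.04. In these counts a different number of vesicles and a different amount of an RNA in each vesicle cannot be told apart. The paper reports that exosome numbers per mL of medium did not differ significantly between the groups. Every library was made from 200 ng of RNA.

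Its share of all counts was 2.52%, 1.21% and 1.77% in UD-P19 replicates 1, 2 and 3. In P19N the share was 3.03%, 2.57% and 2.26% on days 8, 10 and 12. The groups again overlapped, since UD-P19 replicate 1 was above the day 12 library. Among the unique counts of all transcripts, Rnu7 made up 3.39%, 1.94% and 2.27% in UD-P19 and 9.11%, 8.00% and 5.89% in P19N. On this base the groups did not overlap and the means differed 3.02-fold. The unique counts of all transcripts summed to between 337562 and 594544 in UD-P19 and to between 226444 and 295192 in P19N, so that the base itself differed between the groups. The most counted transcript, Gm42418, had 273004, 345984 and 502684 deposited counts in UD-P19 and 147733, 123907 and 106851 in P19N. How many of these were unique, and whether the groups would overlap without Gm42418 in the base, was not tested.

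Within the snRNA class the place of Rnu7 depended on which reads were counted. Of all snRNA counts it held 34.1%, 19.9% and 37.2% in UD-P19 replicates 1, 2 and 3. It held 5.75%, 5.06% and 4.70% in P19N on days 8, 10 and 12. Every P19N library was below every UD-P19 library, and the mean was 30.4% ± 9.21 (SD, n = 3) in UD-P19 and 5.17% ± 0.534 (SD, n = 3) in P19N. The snRNA counts as a whole were between 33555 and 42717 in UD-P19 and between 283869 and 468115 in P19N.

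Of the unique snRNA counts, Rnu7 held 73.2%, 59.6% and 79.6% in UD-P19 replicates 1, 2 and 3, with exact binomial 95% intervals of 72.5 to 73.9%, 58.8 to 60.4% and 79.0 to 80.2%. It held 71.3% (70.9 to 71.8%), 71.0% (70.4 to 71.5%) and 69.9% (69.2 to 70.5%) in P19N on days 8, 10 and 12. The P19N values lay close together and between the UD-P19 values only through UD-P19 replicate 2, since both other UD-P19 libraries lay above every P19N library. The means were 70.8% ± 10.2 (SD, n = 3) and 70.7% ± 0.758 (SD, n = 3), and without UD-P19 replicate 2 the UD-P19 mean was 76.4%. The unique counts of all other snRNA transcripts summed to 4187, 5765 and 3465 in UD-P19 and to 10824, 7981 and 5751 in P19N, so UD-P19 replicate 2 had the fewest Rnu7 reads and the most other unique snRNA reads of its group.

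**Figure D2:**
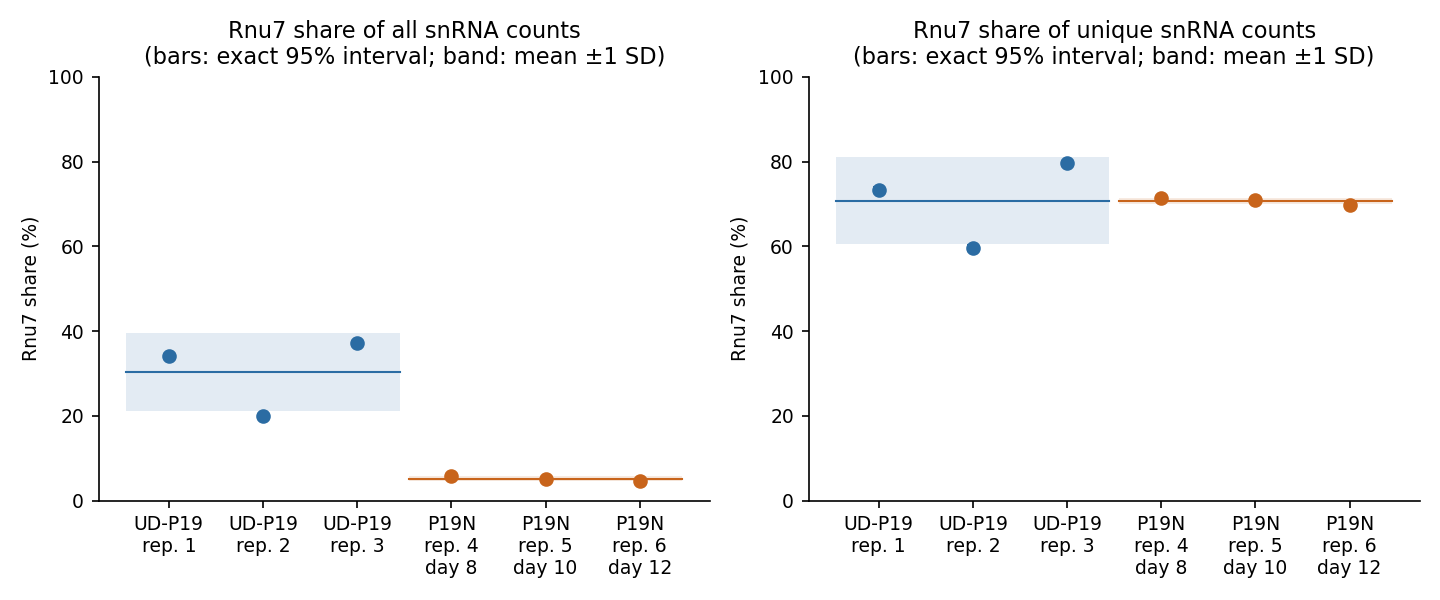
Share of Rnu7 (percent, from 0 to 100) in the snRNA counts of each library, over all snRNA counts on the left and over unique snRNA counts on the right. Points are libraries, bars are exact binomial 95% intervals and are smaller than most points, and lines with bands are group means with SD (n = 3). On the left P19N lies at 4.70 to 5.75%, below every UD-P19 library, and on the right the group means are 70.8% and 70.7%.

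The other snRNAs were assembled by sequence likeness into types and set against Rnu7 within the same library, so that no scaling between libraries enters. U1 recognises the 5′ splice site and was summed over 50 transcripts. For each U1 count there were 0.905, 0.375 and 0.998 counts of Rnu7 in UD-P19 replicates 1, 2 and 3, but 0.0691, 0.0605 and 0.0537 in P19N on days 8, 10 and 12. The groups did not overlap, and the mean ratio was 12.4-fold lower in P19N. Summed U1 counts were at 26782 ± 4351 CPM (SD, n = 3) in UD-P19 and 410363 ± 57950 CPM (SD, n = 3) in P19N.

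U2, which pairs with the branch point, was summed over 16 transcripts. Rnu7 had 2.60 to 3.14 counts per U2 count in UD-P19 and 0.660 to 0.978 in P19N, without overlap and on average 3.45-fold lower. U5, which holds the exons at the splice site, moved the other way against Rnu7. Rnu7 had 1.68 to 4.83 counts per U5 count (10 transcripts) in UD-P19 and 5.77 to 6.23 in P19N, again without overlap. U6, part of the catalytic core, was summed over 323 transcripts, mostly pseudogene-like copies, and the ratios of Rnu7 to it overlapped, at 6.98 to 47.9 in UD-P19 and 10.2 to 18.1 in P19N. The overlap came from UD-P19 replicate 2 alone, and without it the UD-P19 ratios were 38.3 and 47.9, both above every P19N ratio.

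U11 and U12 take the places of U1 and U2 in the minor spliceosome and, like Rnu7, come mostly from a single gene. Rnu7 had 12.4 to 28.5 counts per U11 count in UD-P19 and 12.4 to 14.1 in P19N, so the groups overlapped. It had 10.2 to 13.5 counts per U12 count in UD-P19 and 6.08 to 6.89 in P19N, without overlap and 1.82-fold lower on average. No symbol for U4, U4atac or U6atac was matched, and these types were not assembled here.

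**Figure D3:**
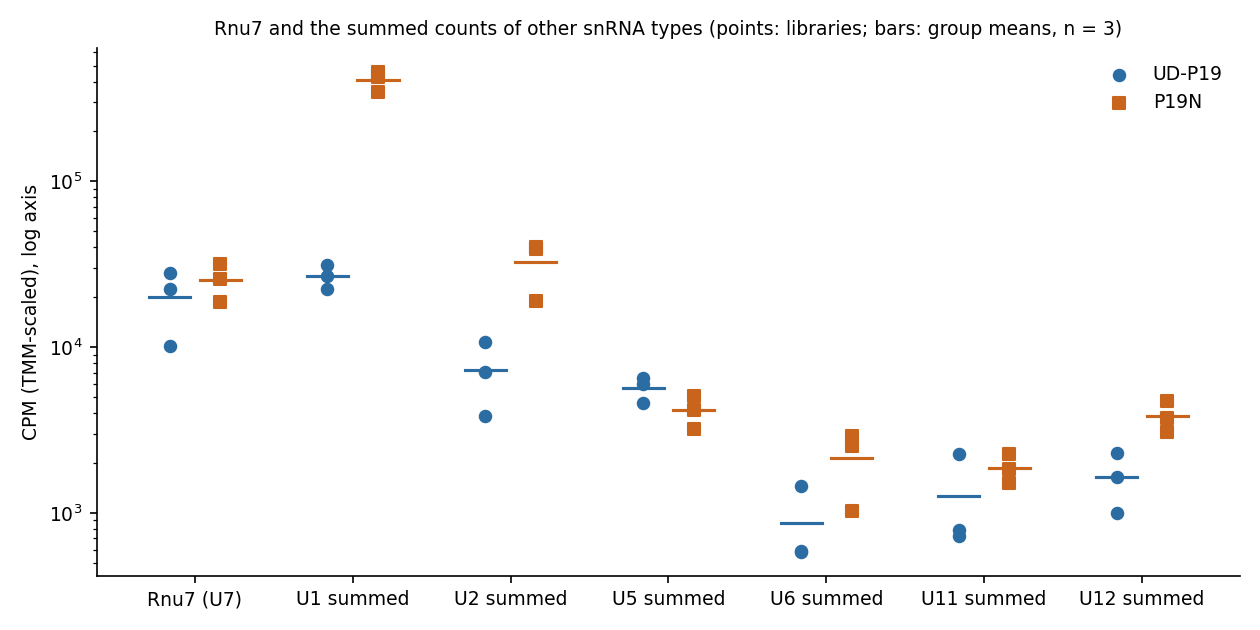
Rnu7 and the summed counts of 6 other snRNA types, as CPM on a log axis. Points are libraries and bars are group means (n = 3), with UD-P19 as circles and P19N as squares. The groups overlap at Rnu7 and stand apart at U1, from 26782 CPM in UD-P19 to 410363 CPM in P19N on average.

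In the test across all transcripts (edgeR's quasi-likelihood F test, with calls made up to an adjusted p of 0.05), 15% of the 1286 tested transcripts were higher and 9.02% were lower in P19N. Of the 202 other snRNA transcripts tested, 60 were higher and 2 were lower, and their median log2 fold change was 1.47, against 0.21 for all tested. The fitted value of 188 of these 202 (93.1%) lay above that of Rnu7, as did that of 603 of all 1285 other tested transcripts (46.9%). The calls were higher for 33 of 37 U1-type and 13 of 13 U2-type transcripts. Of 122 U6-type transcripts 4 were higher and 1 was lower, and of 7 U5-type transcripts 1 was lower. Copies share reads, so these rows are not independent. The 202 came from 25 families of near-identical sequence, with the 122 U6-type rows in 1 family and the 37 U1-type rows in 3. U6-type rows made up 117 of the 188 above Rnu7. The 60 calls came from 14 families, and 26 of them had no unique count. On unique counts in place of all counts, 23 of 56 snRNA transcripts were higher and 4 lower, beside 73 and 54 of all 510 transcripts then tested. Of these 56, 44 (78.6%) lay above Rnu7. Without UD-P19 replicate 2 the number higher was 146 of 197, beside 382 of all 1145 transcripts then tested. The median log2 fold change of the other snRNA transcripts was then 2.28, against 0.60 for all tested. Without UD-P19 replicate 3 these medians were 0.98 and 0.01.

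For each type the member with the most unique counts shows single rows beside Rnu7. The U1 copy Gm22513 rose by 3.89 on the log2 scale (standard error 0.341, edgeR adjusted p = 5.57e-07), with only 3.28% of its counts unique. The U2 copy Gm25939 rose by 1.95 (standard error 0.427, edgeR adjusted p = 0.00356). Rnu12 had 784, 668 and 880 counts in UD-P19 and 3434, 2317 and 1953 in P19N, a log2 difference of 1.24 (standard error 0.384, edgeR adjusted p = 0.0257). The Rnu12 call was lost without UD-P19 replicate 3, P19N replicate 4 or P19N replicate 5, where the adjusted p from edgeR was at most 0.169.

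The members of the other types did not pass the test. On the log2 scale Rnu11 differed by 0.57 (standard error 0.439, edgeR adjusted p = 0.347), the U6 copy Gm25380 by -0.07 (standard error 0.665, edgeR adjusted p = 0.949) and the U5 copy Gm23287 by -1.17 (standard error 0.425, edgeR adjusted p = 0.0558). The call of Gm23287 was the same under 7 of 16 alternatives, and it passed the threshold as lower under the others, DESeq2 size factors and unique counts among them, while on exact counts its value was -0.25. Without UD-P19 replicate 2 the value of Gm25380 was 1.20. Per base of transcript, mean CPM of Rnu7 was 34.7 times that of Rnu11 in UD-P19 and 29.4 times in P19N, and 35.3 and 18.8 times that of Rnu12.

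**Figure D4:**
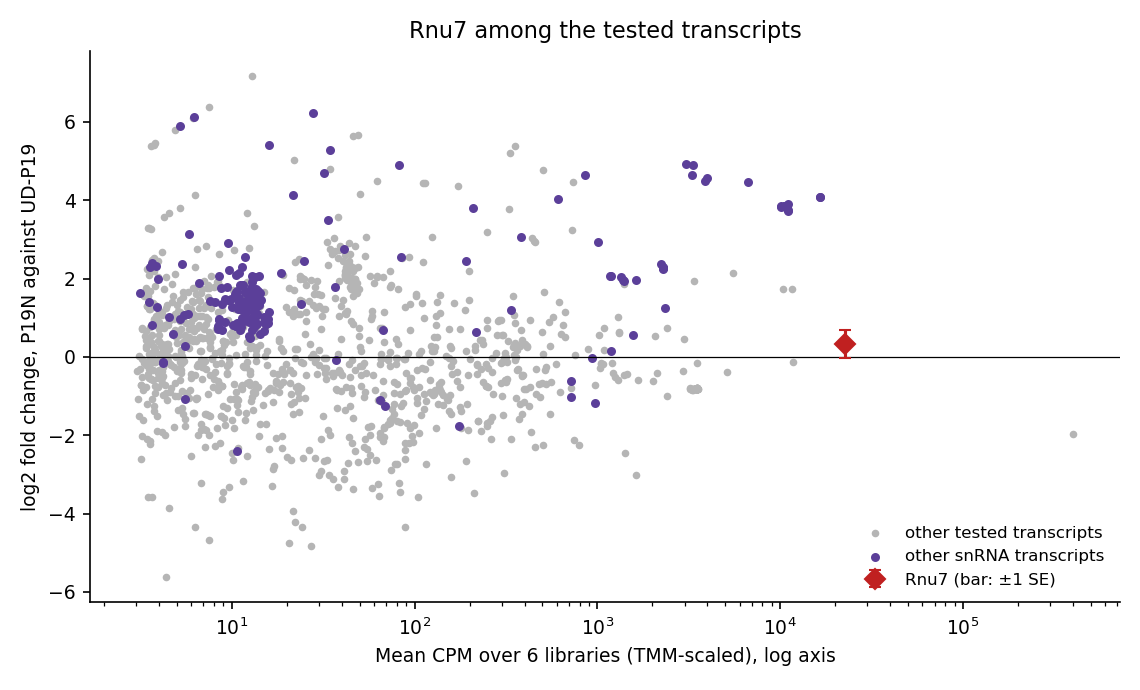
Log2 fold change (P19N against UD-P19) of each tested transcript plotted against its mean CPM over 6 libraries on a log axis. Rnu7 is the diamond with its standard error, other snRNA transcripts are dark points and all others are grey. Rnu7 lies at 0.33, below most other snRNA transcripts, whose median is 1.47.

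Small Cajal body RNAs (scaRNAs) guide the modification of snRNAs in the nuclear bodies that also hold U7. Of 23 tested scaRNAs 17 were higher and 1 was lower in P19N, with a median log2 fold change of 2.84, beside 15% higher and 9.02% lower over all tested transcripts. The 17 came from 12 families of near-identical sequence and 6 of them had no unique count, and 21 of the 23 scaRNAs lay above Rnu7. Other structured RNAs with mostly unique reads were set beside Rnu7 as well. Of 8 tested rows for 7 such RNAs, 3 were higher and 0 lower by edgeR's quasi-likelihood test. These were Rmrp, the RNA of RNase MRP (log2 fold change 1.75, standard error 0.319), and the Y RNAs Rny1 (1.74, standard error 0.303) and Rny3 (1.93, standard error 0.335). Both Rmrp rows overlap in the genome and share reads.

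The RNAs that did not pass were Rn7sk, which holds back the elongation factor P-TEFb (0.81, standard error 0.406), the RNase P RNA Rpph1 (1.14, standard error 0.511), the telomerase RNA Terc (1.10, standard error 0.583) and the vault RNA Vaultrc5 (-0.01, standard error 0.539). The shorter Rmrp row, without a unique count, did not pass either (1.19, standard error 0.435, edgeR adjusted p = 0.0585). It did not pass under 9 of 15 alternatives and passed under the others, among them TMMwsp and edgeR's exact test. Rn7sk and Rpph1 each kept their side of the threshold under 13 of 16 alternatives. Rn7sk passed without UD-P19 replicate 2, without P19N replicate 6 and on exact counts, and Rpph1 passed without UD-P19 replicate 1, without UD-P19 replicate 2 and with total counts only. Of the 8 rows 7 (87.5%) lay above Rnu7, and Vaultrc5 lay below it. The values of Terc and Vaultrc5 rest on 99 and 111 counts over the 6 libraries.

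Transcripts of 50 to 75 bases, a length close to that of Rnu7, were described in the same way. Of 114 tested, 8 were higher and 22 lower in P19N, beside 15% higher and 9.02% lower over all tested transcripts, and their median log2 fold change was -0.46. The contrast with all transcripts depended on the scaling. With DESeq2 size factors 7 were higher and 23 lower, beside 178 and 189 of all 1286. By the DESeq2 test they were 7 and 27, beside 175 and 203 of all 1286. These counts also depended on single libraries. Without UD-P19 replicate 2 they were 19 higher and 28 lower, beside 382 and 151 of all 1145 then tested. Without P19N replicate 4 they were 3 and 15 (124 and 75 of all 1160). Without P19N replicate 5 they were 3 and 12 (105 and 117 of all 1171). Without UD-P19 replicate 1 or 3, 4 were higher in each case (122 of all 1257 and 130 of all 1234). On unique counts 3 were higher and 10 lower, beside 73 and 54 of all 510 tested. The fitted value of 33 of them (28.9%) lay above that of Rnu7. Among these, 76 were snoRNAs, with 3 higher, 15 lower and a median of -0.61. Rnu7 thus lay above the median of RNAs of its length and below the median of its class.

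Within P19N, Rnu7 decreased from each collection to the next. Its counts fell by 27.5% from day 8 to day 10 and fell by 31.7% from day 10 to day 12, while the total counts of these libraries fell as well, from 887460 to 760295 and 588646. On the CPM scale it fell by 18.6% and then fell by 27.9%, to 0.587 of the day 8 value, or -0.77 on the log2 scale. Without TMM scaling the fall was smaller, since its share of all counts fell by 25.3% from day 8 to day 12, to 0.747 of the day 8 value. Its share of all snRNA counts fell by 1.05 percentage points and its share of unique snRNA counts fell by 1.45 percentage points from day 8 to day 12, and its exact share stayed at 74.7 to 74.8%. There was 1 library per day, so replicate spread, culture age and the second fluorouridine exposure with its medium change cannot be told apart.

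The same 3 libraries give the course of other transcripts that averaged 10 counts or more. The median log2 change from day 8 to day 12 was -0.90 over 105 other snRNA transcripts, 63 of which fell further than Rnu7. It was 0.18 over 101 transcripts of 50 to 75 bases, of which 7 fell further, and -0.16 over all 756 others, of which 150 (19.8%) fell further. Rnu7 fell at both steps, as did 61.0% of the other snRNA transcripts, 14.9% of those of 50 to 75 bases and 25.7% of all. As shares of all counts, without TMM scaling, every one of these log2 changes is higher by 0.35. This alternative was added after seeing the data. The median over all 756 others then turned from -0.16 to 0.19, that of the other snRNA transcripts was -0.55 and that of transcripts of 50 to 75 bases was 0.53. Rnu7 still fell at both steps, as did 46.7%, 4.95% and 15.7% of the snRNA, short and all transcripts. Summed U1 fell to 0.755, U2 to 0.471, U5 to 0.633, U6 to 0.353, U11 to 0.669 and U12 to 0.651 of the day 8 CPM, so Rnu7 at 0.587 lay between U2 and U5. Without TMM scaling U1 was at 0.961 of its day 8 share, U2 at 0.600, U5 at 0.806, U6 at 0.449, U11 at 0.851 and U12 at 0.829, with Rnu7 at 0.747.

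The transcripts most like Rnu7 over the 6 libraries were sought by the root mean square difference of log2 CPM, each centred on its own mean, among 757 transcripts. The 5 nearest were all snoRNAs, a common class among the tested transcripts, whose share of the 757 was not counted. They were Gm24949 (0.22, 1 of 16 near-identical copies, without a unique count), Snord73a (0.24), Gm25791 (0.29), Gm26457 (0.31) and Snord15a (0.31). Rnu7 itself was at 0.39, -1.09 and 0.06 in UD-P19 replicates 1, 2 and 3 and at 0.57, 0.27 and -0.20 in P19N on days 8, 10 and 12. Each of the 5 had its lowest value in UD-P19 replicate 2, between -1.49 and -0.93. In each of them that value was the farthest from 0, so the likeness leans on this library.

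**Figure D5:**
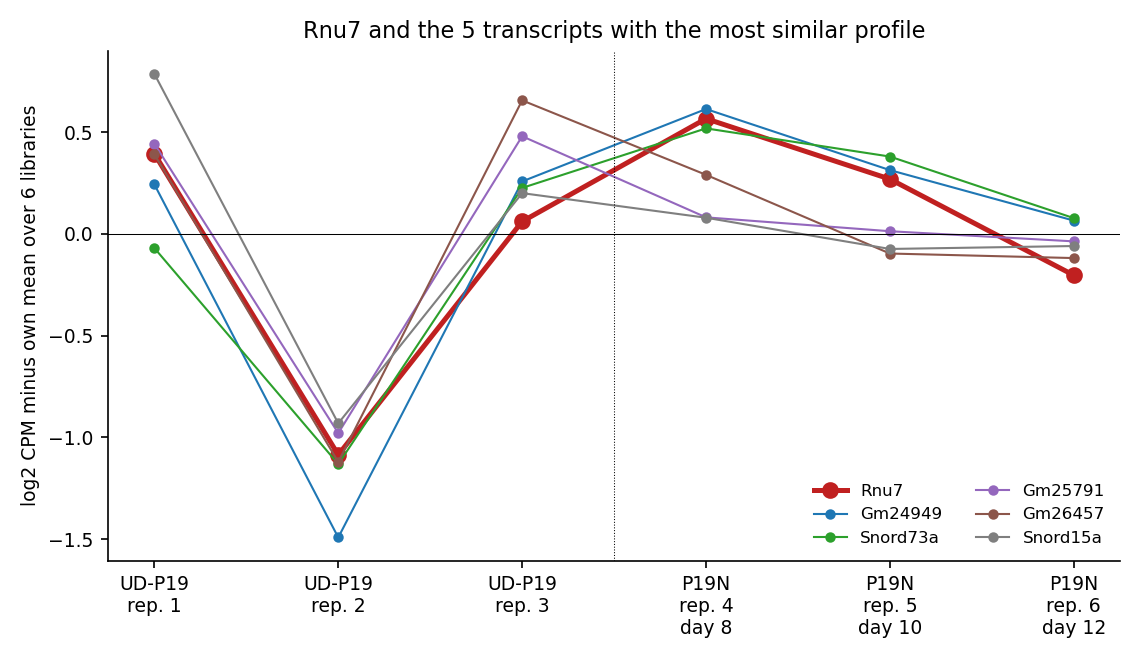
Log2 CPM of Rnu7 (thick line) and of the 5 transcripts with the most similar profile, each minus its own mean over 6 libraries. The lines join libraries only to show each profile, and the dotted line parts UD-P19 from P19N. All 6 are lowest in UD-P19 replicate 2, where Rnu7 is at -1.09.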

How the data were processed

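The authors trimmed adaptors, joined read pairs, matched reads to GRCm38 non-coding transcripts in CLC Genomics Workbench with default settings, and deposited counts per transcript without normalization. Columns headed unique mature 5′ and exact mature 5′ are undefined, and what mature 5′ means for these transcripts is not given. They are called unique and exact here and were read as matching 1 non-coding transcript only and, by assumption, as free of mismatches. How reads with several matches, or strand, were treated is not given in the sources used here. The deposited means, fold changes, p-values and FDR of the authors' comparison were not used.

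Of 5880 identifiers, 5777 matched GENCODE M21 (7 without version number) and 103 did not. Transcripts with 15 or more counts over all libraries (1286) were fitted with edgeR 4.0.16 in R 4.3.3 (TMM, quasi-likelihood F test, Benjamini-Hochberg adjustment, all 6 libraries, no covariate). Standard errors were derived from the F statistic. In simulated counts for P19N against UD-P19, with 200 of 1286 transcripts changed by 2 on the log2 scale, 73% were recovered and 3.31% of calls were false. The changed transcripts were picked from those averaging 10 counts or more, up or down at random, and each transcript was drawn independently. The simulation thus covers neither reads shared between copies nor a shift of a whole RNA class. Log2 CPM used a prior count of 2. Sequences were compared with BLAST 2.17.0 (types at 80% identity, near-identical families at 90%, both over 80% of the longer sequence) and folded with RNAfold 2.7.2. Tables and figures used Python 3.11.15 with pandas 2.3.3, numpy 2.4.6, matplotlib 3.10.9 and scipy 1.17.1.

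Named transcripts were Rnu7, any U7-like copy (none passed), the member of each snRNA type with the most unique counts, 7 structured RNAs and the 5 nearest profiles. Rnu7 and all lists were chosen with earlier results of these data known. The alternatives were DESeq2 1.42.0 (test, size factors), TMMwsp, total counts, TMM without snRNAs, other count filters, edgeR's exact test, unique or exact counts, Gm23763 summed with Rnu7, and each library left out.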

Additional observations from a re-analysis of the deposited data

How the results depend on the processing

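The log2 fold change of Rnu7 (0.33) was above 0 in 16 of 17 alternatives. Other scalings, filters, tests and count columns gave 0.14 to 0.52, and leaving out 1 library gave -0.03 to 0.53. With DESeq2 size factors the median of all tested transcripts fell from 0.21 to 0.05 and Rnu7 to 0.14. Its mean share of unique snRNA counts, 70.8% in UD-P19 and 70.7% in P19N, was 30.4% and 5.17% over all snRNA counts, 30.6% and 4.91% over exact snRNA counts and 2.54% and 7.67% over unique counts of all transcripts, since each has another base. Leaving out 1 library gave 66.4 to 76.4% in UD-P19 and 70.4 to 71.1% in P19N. Of other snRNA transcripts 60 were higher and 2 lower. The lower count was 5 with DESeq2 size factors, 5 by DESeq2 and 4 with a total of at least 5 counts. It was 1 with total counts only and 4 on unique counts, where 23 were higher. Lower calls over all transcripts moved as well, from 116 to 189, 203, 207 (of 2079 then tested), 90 and 54 in the same order. With 1 library left out, 50 to 146 other snRNA transcripts were higher, the most without UD-P19 replicate 2, and 1 to 5 lower. For all transcripts, 193 higher and 116 lower calls became 178 and 189 with DESeq2 size factors and 73 and 54 on unique counts, and ran from 105 to 382 higher and from 75 to 174 lower with 1 library left out. The cause of these shifts was not tested, beyond the fewer transcripts tested on unique counts (510). No paired analysis was possible because the groups share no replicate numbers. With 3 libraries a group the spread of Rnu7 was wide (SD 9211 CPM in UD-P19), while its counting error was small.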
